A study of Mus musculus with 12 samples.

Results

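The collagen genes are the family of extracellular matrix genes that encode the chains of types I to XXVIII collagen, taken here as every gene of the count table whose symbol has the form of a collagen chain (Col, a type number, a, a chain number). The rule took 44 of 27179 genes by name alone, and 39 of the 44 passed the expression filter, out of 14903 genes that did. The other 5 had too few reads to be tested: Col24a1 had 18 counts over the 12 libraries, Col10a1 had 10, Col19a1 had 31, Col22a1 had 9 and Col26a1 had 26.

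RNA-seq libraries were made from basal and luminal epithelial cells of the mammary gland of female mice, with 3 biological replicates per group. The groups are basal and luminal cells of MMTV-cre/Foxp1(fl/fl) mice, labelled Foxp1 knockout, and the same cell types of Foxp1(fl/fl) mice, the controls. Both genotypes carry the floxed allele of Foxp1, a forkhead transcription factor, and differ by the Cre transgene. The MMTV promoter drives Cre in mammary epithelium, so deletion depends on which epithelial cells express it, and neither a Cre-only group nor the age of the mice is given in the sources used here.

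Collagen chains assemble into a triple helix. Fibrillar types I, II, III, V, XI, XXIV and XXVII form or regulate fibrils, and of these types I and III are made mainly by fibroblasts in the mammary stroma. Type IV chains form the sheet of the basement membrane on which basal (myoepithelial) cells rest, type VII anchors that sheet to the stroma, and the transmembrane chain Col17a1 is part of the hemidesmosome that fixes basal cells to it.

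Total counts were 9769360 to 11133900 per library, with 15449500 in luminal knockout-labelled replicate 3. All 6 basal markers (among them Krt5, Krt14 and Trp63) were lower and all 7 luminal markers (among them Krt8, Krt18 and Epcam) were higher in luminal than in basal control libraries, so the cell type labels match their defining genes. Transcripts of 4 salivary gland markers (Bpifa2, Smr3a, Prol1 and Amy1) summed to 18244 to 77586 CPM in luminal knockout-labelled and 9920 to 107489 CPM in luminal control libraries, and to 171 to 4532 CPM in basal knockout-labelled and 896 to 3705 CPM in basal control libraries. The sums overlapped between the labels, but Smr3a fell in luminal (-9.47 on the log2 scale, adjusted p = 0.00321) and basal cells (-5.89, adjusted p = 0.0312) and Prol1 rose in luminal cells (3.61, adjusted p = 0.0310). The basal Smr3a call was lost without any 1 basal library other than control replicate 3 (0.0679 to 0.130), and the Prol1 call was lost without any 1 of the luminal knockout-labelled libraries, luminal control replicates 1 and 2, basal knockout-labelled replicate 3 or basal control replicate 1 (0.0502 to 0.106). The part of salivary transcripts in the results was not tested. Foxp1 itself was not lower in the knockout-labelled libraries: its log2 fold change was 0.22 (SE 0.19, adjusted p = 0.926) in basal and 1.07 (SE 0.19, adjusted p = 0.0161) in luminal cells. The gene-level count includes reads outside the deleted exons, so it does not check the deletion, and the libraries are called knockout-labelled throughout. In bulk libraries such as these, fewer cells of a type and less RNA per cell cannot be told apart. Levels below are CPM (read counts of a gene relative to the library total), scaled by TMM factors, and levels of different genes are compared as CPM per kilobase of the gene length in the deposited table. A gene is called when its Benjamini-Hochberg adjusted p over all 14903 genes is under 0.05 in edgeR's quasi-likelihood test, and every adjusted p of a gene is of that kind unless another tool is named. The comparisons share libraries with each other, so their values are set side by side and are not independent.

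Collagen transcripts were abundant in basal libraries and scarce in luminal ones. They took 0.860%, 1.27% and 0.871% of the counts in basal knockout-labelled replicates 1, 2 and 3, and 1.29%, 1.19% and 0.693% in basal control replicates 1, 2 and 3. In luminal libraries they took 0.0791%, 0.121% and 0.0965% in the knockout-labelled replicates and 0.105%, 0.136% and 0.119% in the controls. Every basal library therefore held a larger collagen share than every luminal library, while knockout-labelled and control shares overlapped within each cell type.

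**Figure D1:**
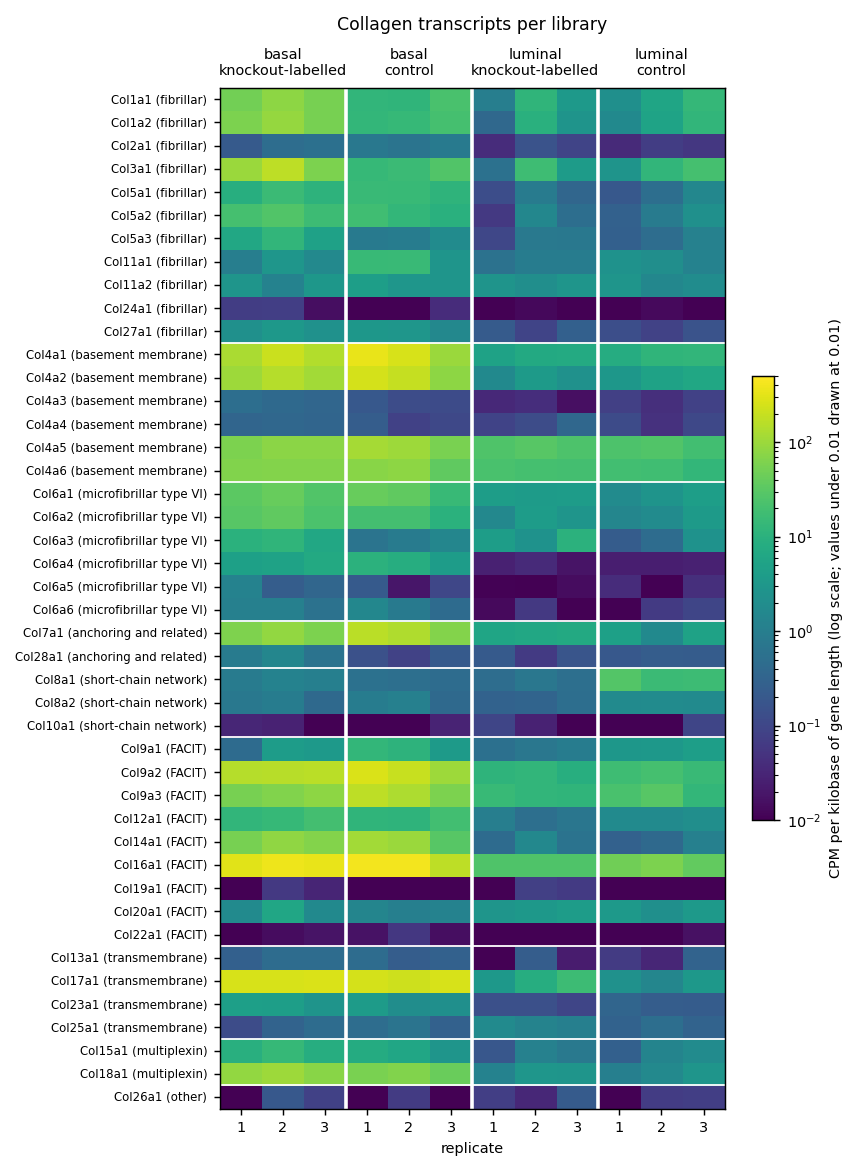
Level of each of the 44 collagen genes (rows, grouped by structural class) in each of the 12 libraries (columns), as CPM per kilobase on a log colour scale. Col16a1, Col17a1, Col4a1 and Col9a2 are bright in the 6 basal libraries, and Col8a1 is bright in the 3 luminal control libraries and in no other group.

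Per length, the order of the leading chains was nearly the same in both basal groups. Col16a1, a fibril-associated chain, had the highest mean, with 348 ± 32.2 CPM per kilobase in knockout-labelled and 331 ± 137 in control basal libraries (mean ± SD, n = 3 each). Col17a1 had 264 ± 7.90 in knockout-labelled and 243 ± 23.1 in control basal libraries, and Col4a1, the main chain of the basement membrane network with Col4a2, followed with 160 ± 41.4 in knockout-labelled and 235 ± 127 in control basal libraries. In basal controls these 3 lay within their spread of each other, and in control replicate 3 Col17a1, at 265 CPM per kilobase, was above Col16a1, at 172. In the luminal knockout-labelled libraries the highest chains were Col4a5, at 26.4 ± 3.26 CPM per kilobase, Col16a1, at 25.1 ± 0.204, and Col4a6, at 20.9 ± 1.29. In luminal controls they were Col16a1, at 48.1 ± 11.8 CPM per kilobase, Col4a5, at 23.3 ± 4.09, Col9a3, at 21.8 ± 8.69, and Col8a1, at 20.2 ± 6.78. The last 3 of these overlapped within their spread, and Col8a1 was the one chain of the 4 that was not among the 8 highest of the luminal knockout-labelled libraries.

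Luminal control libraries were set against basal control libraries to place each collagen between the cell types. Of the 39 tested collagens, 2 were higher and 23 lower in luminal controls, where 16.3% and 16.8% of all tested genes were higher and lower (33.2% together). The median log2 fold change was -2.47 over the collagens and 0.04 over all genes. In knockout-labelled libraries 1 collagen was higher and 31 were lower in luminal cells, where 19.2% and 21.4% of all genes were (40.6% together), with a median of -3.70 over the collagens and 0.03 over all genes.

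Most chains of the epithelial attachment sites and the basement membrane were lower in luminal cells, by widely different amounts. Col17a1 stood at 17.5, 46.2 and 88.7 CPM in luminal and 1432, 1388 and 1473 CPM in basal knockout-labelled libraries, a log2 fold change of -4.81 (SE 0.53). In controls it stood at 12.8, 7.86 and 17.5 CPM in luminal and 1337, 1187 and 1436 CPM in basal libraries, a log2 fold change of -6.70 (SE 0.58, adjusted p = 1.2e-05). Every luminal library was far below every basal library. Col7a1, the anchoring fibril chain, was lower in luminal cells, with a log2 fold change of -3.41 in knockout-labelled and -5.02 in control libraries. Col4a1 had -4.61 in knockout-labelled and -4.45 in control libraries, and Col4a2 had -5.55 in knockout-labelled and -5.19 in control libraries. Col4a5 and Col4a6, which lie head to head on the X chromosome, were also lower in luminal cells. Their log2 folds were smaller, at -1.42 and -1.67 in knockout-labelled and -1.97 and -1.92 in control libraries. Of the scarce type IV chains (174 and 201 counts over the 12 libraries), Col4a3 had -3.75 in knockout-labelled libraries (adjusted p = 8.5e-05). It had -1.10 in controls (adjusted p = 0.0671, not called). Col4a4 was called in neither, at -0.80 (adjusted p = 0.278) in knockout-labelled and -0.64 (0.468) in control libraries.

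Other chains were lower in luminal cells as well. Col6a4, a type VI chain, had the largest fold of the collagens in both comparisons, with a log2 fold change of -7.66 (SE 0.46) in knockout-labelled and -8.12 (SE 0.47) in control libraries. Its luminal level rested on 2, 3 and 2 reads in knockout-labelled and 2, 2 and 2 reads in control libraries, so the size of the fold is poorly fixed. Col6a5 and Col6a6, also type VI chains, had -5.93 and -5.06 in knockout-labelled libraries (adjusted p = 0.00114 and 0.000945). In controls they had -1.77 (adjusted p = 0.179, not called) and -4.14 (adjusted p = 0.00251). Their luminal knockout-labelled levels rested on 1, 0 and 2 reads and on 1, 5 and 1 reads. Col14a1, a fibril-associated chain, had -6.26 in knockout-labelled and -7.08 in control libraries. Col18a1, the basement membrane proteoglycan that gives rise to endostatin, had -5.23 in knockout-labelled and -4.88 in control libraries. The principal fibrillar chains Col1a1, Col1a2 and Col3a1 had log2 folds of -3.51, -3.98 and -3.93 in knockout-labelled libraries, where all 3 were called, and of -1.13, -1.28 and -0.67 in controls, where none was called (adjusted p = 0.278, 0.275 and 0.611). These 3 chains spread widely among luminal libraries: Col3a1 stood at 3.19, 95.0 and 21.2 CPM in luminal knockout-labelled and at 15.3, 69.6 and 114 CPM in luminal control libraries. The sum of 12 fibroblast markers spread over 124 to 182 CPM in luminal knockout-labelled and 44.9 to 183 CPM in luminal control libraries, and its part in these levels was not tested.

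Few collagens were higher in luminal cells. Col8a1 was higher by a log2 fold change of 5.29 (SE 0.29, adjusted p = 1.6e-06) in controls and lower, at -0.91 (SE 0.27, adjusted p = 0.0180) in knockout-labelled libraries. The second call was lost without basal knockout-labelled replicate 2 (adjusted p = 0.0537) or luminal knockout-labelled replicate 1 (0.0665) or 3 (0.0625), and with limma-voom (0.0767). Col20a1, a fibril-associated chain, was higher in luminal controls by 1.32 (SE 0.45, adjusted p = 0.0417). That call was lost without any 1 of the 3 basal control libraries, the 3 luminal knockout-labelled libraries or luminal control replicates 1 and 3, with adjusted p between 0.0511 and 0.117, and with library size alone (0.0515) or limma-voom (0.0545). Col25a1, a transmembrane chain known from neurons and motor innervation, was higher in luminal cells of the knockout-labelled libraries by 2.19 (SE 0.47, adjusted p = 0.00322), with 13.1, 9.40 and 7.87 CPM in luminal and 0.912, 2.33 and 3.37 CPM in basal libraries. Its log2 fold in controls was -0.34 (adjusted p = 0.600). With the replicate number as a block, which the correlations between same-numbered control libraries allow, the counts in controls became 3 higher and 25 lower. Col8a2 was added to the higher chains (adjusted p = 0.0330) and Col6a5 and Col11a2 to the lower ones (adjusted p = 0.0392 and 0.0407). Calls over all genes rose from 4942 to 6528 of 14903 with the block.

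**Figure D2:**
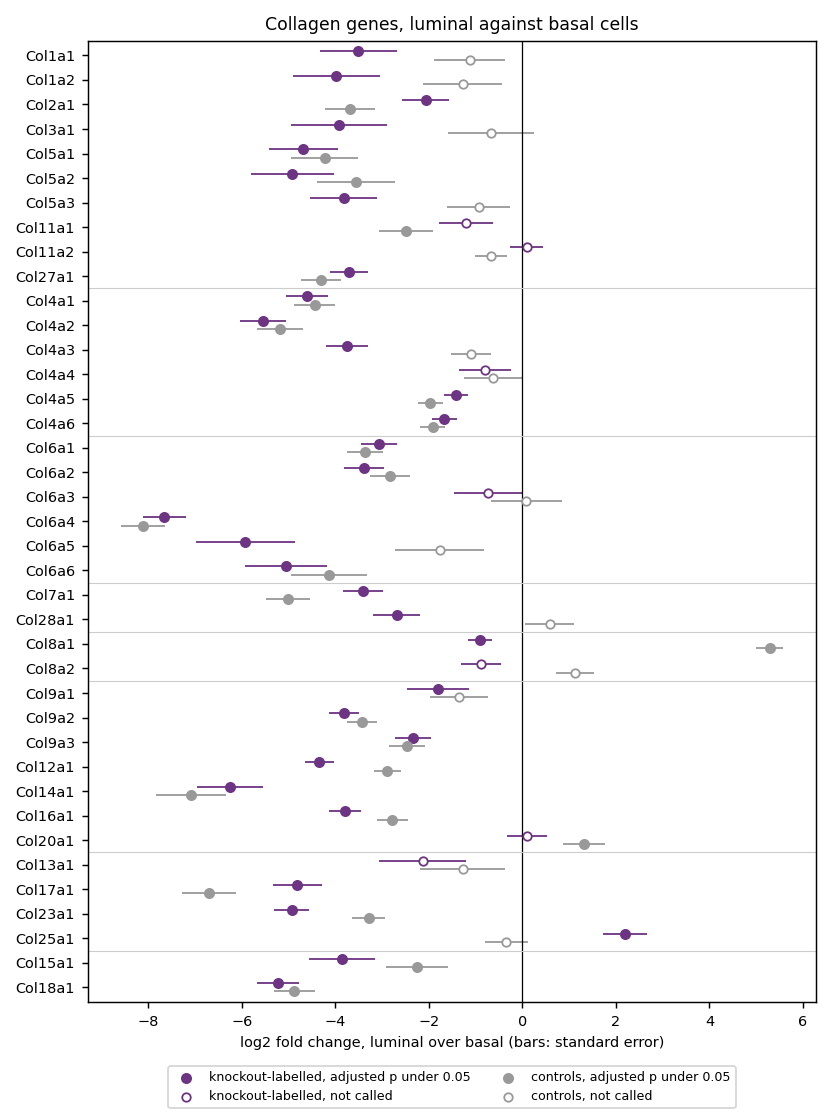
Log2 fold change of luminal over basal libraries for the 39 tested collagens, in knockout-labelled (purple) and control (grey) libraries, with bars for the standard error and filled points for adjusted p under 0.05. Most points lie left of 0, while Col8a1 stands at 5.29 in controls and at -0.91 in knockout-labelled libraries.

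In luminal cells, 4 collagens differed between knockout-labelled and control libraries. Col8a1, Col8a2 and Col12a1 fell and Col17a1 rose. Of all tested genes 3.03% were called, with 2.21% that rose and 0.819% that fell. The median log2 fold was -0.58 over the 39 collagens and -0.03 over all genes, and 11 of the 39 had an unadjusted p under 0.05. The share of all genes at such a p is not given, here or below, so these counts have no background. Groups did not overlap for 3 collagens that were higher and 10 that were lower, where 13.1% and 12.3% of all genes were so (25.4% in either direction). With the replicate number as a block, 7 collagens were called: these 4, with Col25a1 and Col6a3 higher and Col23a1 lower. Calls rose over all genes too, from 451 to 1097 of 14903 with the block. The block was part of the model of all 12 libraries. It was therefore also applied to the basal knockout-labelled and control libraries, which the numbers were not taken to pair.

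Col8a1 and Col8a2 encode the chains of type VIII collagen, a short-chain collagen that forms hexagonal networks and is best known from the endothelium and from the Descemet membrane of the cornea. Col8a1 lies on chromosome 16 from 57624256 to 57754737 and Col8a2 on chromosome 4 from 126286794 to 126314330 (RefSeq, GRCm38.p6), so the 2 genes are unlinked. As both fell, the bases just before their start sites are shown, from RefSeq on GRCm38.p6, at chr16:57754738-57754987 on the minus strand for Col8a1 and at chr4:126286544-126286792 on the plus strand for Col8a2, each 5′ to 3′ with capitals marking the GC box GGGCGG or its reverse complement CCGCCC. The last base before the Col8a2 start site belongs to a Col8a2 exon in GENCODE and is left out, so that 249 bases are shown for it and 250 for Col8a1.
Col8a1: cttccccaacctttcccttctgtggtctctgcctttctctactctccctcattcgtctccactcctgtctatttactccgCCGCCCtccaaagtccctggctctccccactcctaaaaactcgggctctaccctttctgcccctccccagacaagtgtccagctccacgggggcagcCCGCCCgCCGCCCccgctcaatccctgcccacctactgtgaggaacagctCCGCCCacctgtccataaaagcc
Col8a2: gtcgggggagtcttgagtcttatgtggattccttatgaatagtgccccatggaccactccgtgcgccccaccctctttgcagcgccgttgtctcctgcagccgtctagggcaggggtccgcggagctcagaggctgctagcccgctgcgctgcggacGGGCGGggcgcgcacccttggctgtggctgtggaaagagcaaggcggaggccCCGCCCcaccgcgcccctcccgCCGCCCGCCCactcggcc

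Each window held 4 matches to the GC box on either strand, the last 2 of Col8a2 overlapping each other. The GC box occurred in 32.7% of 32851 windows of 250 bases before a start site in the RefSeq table and in 22 of the 38 windows of 35 collagen genes. The forkhead core TGTTTA or its reverse complement TAAACA was in neither of the 2 windows shown; it occurred in 12% of all windows and in 6 of the 38 collagen windows. The TATA box TATAAA or TTTATA was likewise in neither, against 12.4% of all windows and 5 of the 38. These are matches of letters only.

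Col8a1 stood at 2.39, 3.67 and 2.67 CPM in luminal knockout-labelled replicates 1, 2 and 3, and at 143, 80.1 and 86.2 CPM in luminal control replicates 1, 2 and 3. The lowest control was far above the highest knockout-labelled library, and all 3 knockout-labelled libraries lay near the 2.90, 2.68 and 2.31 CPM of the basal controls. The counts behind these levels were 24, 41 and 40 reads in knockout-labelled and 1527, 866 and 857 reads in control libraries. The log2 fold was -5.14 (SE 0.29, adjusted p = 1.5e-05), and it stayed between -5.34 and -4.81 and called when any 1 library was left out.

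Col8a2 stood at 1.30, 1.43 and 2.14 CPM in luminal knockout-labelled and at 7.77, 7.86 and 7.64 CPM in luminal control libraries. The groups did not overlap and the 3 controls lay close together. It fell, with a log2 fold change of -2.24 (SE 0.43, adjusted p = 0.0187). The call was lost without luminal knockout-labelled replicate 1 (adjusted p = 0.0588) or 2 (0.0834) or luminal control replicate 1 (0.0630) or 2 (0.0631). Per length, there were 1.60 ± 0.557 Col8a1 transcripts for each Col8a2 transcript in luminal knockout-labelled and 11.3 ± 3.78 in luminal control libraries (mean ± SD, n = 3 each). In basal cells the ratio was 1.73 ± 0.841 in knockout-labelled and 0.729 ± 0.339 in control libraries. The summed level of 8 endothelial markers was 70.2 to 86.0 CPM in luminal knockout-labelled and 98.8 to 168 CPM in luminal control libraries, with 0 of 8 called by edgeR, 5 of 8 at an unadjusted p under 0.05 and 0 called by DESeq2, and its part in the type VIII levels was not tested.

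Col12a1 (chromosome 9, 79598987 to 79721141) encodes a fibril-associated chain that bridges fibrils and other matrix proteins. It stood at 11.97, 6.17 and 8.21 CPM in luminal knockout-labelled and at 20.4, 20.4 and 24.5 CPM in luminal control libraries, without overlap. It fell, with a log2 fold change of -1.31 (SE 0.28, adjusted p = 0.0320). The call was lost without any 1 of luminal knockout-labelled replicates 2 and 3 or the 3 luminal controls, with adjusted p between 0.0651 and 0.122, and in a fit of the luminal libraries alone (0.0718).

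Col17a1 (chromosome 19, 47646341 to 47692042) was the one collagen called higher in luminal knockout-labelled libraries, with a log2 fold change of 1.999 (SE 0.47, adjusted p = 0.0466). Its 17.5, 46.2 and 88.7 CPM in knockout-labelled libraries met the 12.8, 7.86 and 17.5 CPM of controls at the margin, since knockout-labelled replicate 1 and control replicate 3 stood at nearly the same level. The call was lost in 9 of the 12 fits that left out 1 library, with adjusted p between 0.0649 and 0.175, and was kept without basal control replicate 3, luminal knockout-labelled replicate 1 or luminal control replicate 3. It was also lost with limma-voom (adjusted p = 0.0917) and in a fit of the luminal libraries alone (0.138). Col17a1 was about as high in basal knockout-labelled as in basal control libraries, and basal markers were present in luminal libraries too. Their sum over 6 markers was 304, 728 and 611 CPM in luminal knockout-labelled and 129, 116 and 667 CPM in luminal control libraries, with overlap. The median log2 fold change of the 6 was -0.10, against -0.03 over all genes, and 1 of them was higher without overlap. Over all genes 13.1% were higher without overlap and 2.21% were called higher. Of the 6, 1 was called higher, Trp63, the transcription factor of the basal lineage, at a log2 fold change of 2.80 (SE 0.58, adjusted p = 0.0253), a call lost without luminal knockout-labelled replicate 2 (0.0909) or 3 (0.0785) or luminal control replicate 1 (0.118) or 2 (0.0631), and in a fit of the luminal libraries alone (0.110). The part of basal transcripts in the Col17a1 result was not tested.

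**Figure D3:**
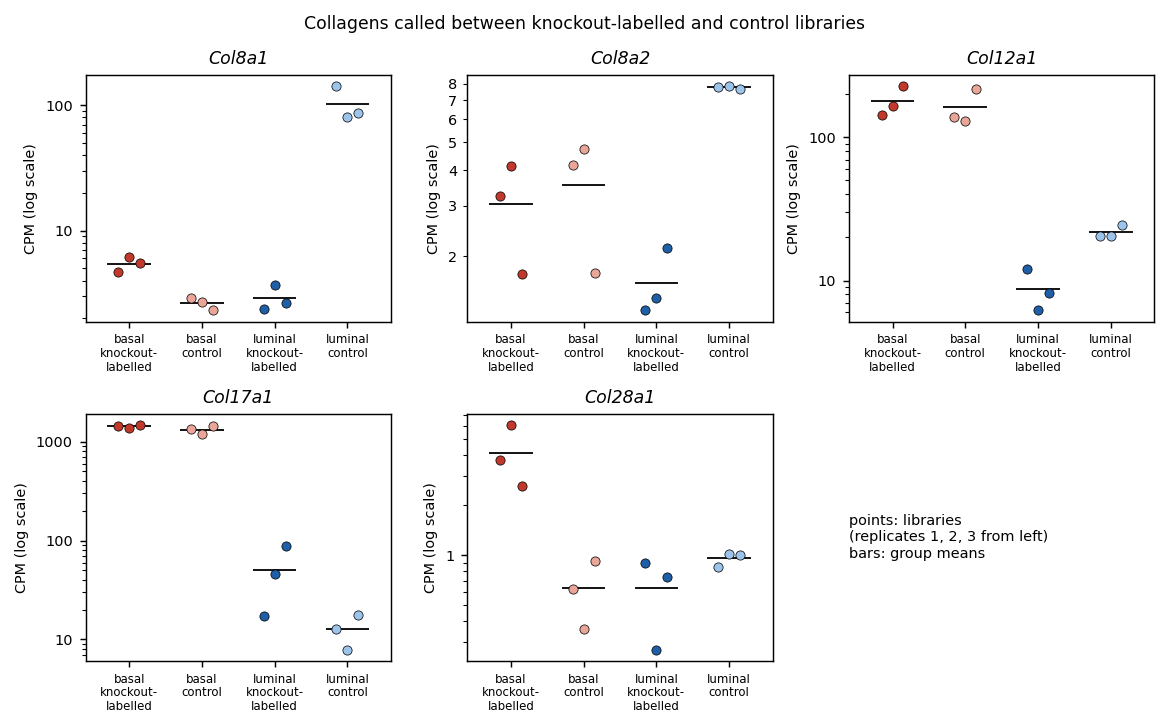
CPM on a log axis of the 5 collagens called between knockout-labelled and control libraries, with 1 point per library and a bar at each group mean. Luminal control libraries hold 80.1 to 143 CPM of Col8a1 while all other groups lie under 10 CPM, and Col28a1 is highest in the 3 basal knockout-labelled libraries.

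The luminal chains with the next lowest p did not pass. Col25a1 stood at 13.1, 9.40 and 7.87 CPM in luminal knockout-labelled and at 2.25, 3.70 and 2.31 CPM in luminal control libraries, all 3 above the controls. Its log2 fold was 1.87 (SE 0.46, adjusted p = 0.0520, and 0.0362 with the replicate block). It was called with DESeq2 (adjusted p = 0.00177) and limma-voom (0.0375) too. Col9a1, a chain of the fibril-associated type IX, had a log2 fold change of -2.25 (SE 0.67, adjusted p = 0.0978), with 2.09, 2.86 and 3.60 CPM in knockout-labelled and 11.8, 12.5 and 16.99 CPM in control libraries. Col16a1 had a log2 fold change of -0.94 (SE 0.31, adjusted p = 0.141), with 130 to 132 CPM in knockout-labelled and 190 to 313 CPM in control libraries. Both had groups that did not overlap. DESeq2 called Col9a1 (adjusted p = 0.0116) and Col16a1 (0.0451), and a fit of the luminal libraries alone called Col9a1 (0.0264). Col6a3 had a log2 fold change of 2.43 (SE 0.78, adjusted p = 0.128, and 0.0406 with the replicate block) and groups that met, with 44.0, 26.7 and 114 CPM in knockout-labelled and 2.53, 4.99 and 26.9 CPM in control libraries, and was called by DESeq2 (adjusted p = 0.0186).

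The principal chains of fibrils and basement membrane were not called in luminal cells. Col1a1, Col1a2 and Col3a1 had log2 folds of -0.38, -0.60 and -0.74, each under its standard error, and Col1a1 and Col1a2 changed sign when a library was left out. Col4a1 was at 34.3, 46.4 and 49.3 CPM in knockout-labelled and at 54.0, 78.1 and 82.2 CPM in control libraries, with a log2 fold change of -0.72 (SE 0.39, adjusted p = 0.382). Col4a2 had -0.88 (SE 0.42, adjusted p = 0.315). Col7a1 had 0.78 (SE 0.40, adjusted p = 0.343), Col6a1 0.45 (SE 0.37, adjusted p = 0.588), Col15a1 -0.69 (SE 0.67, adjusted p = 0.659) and Col18a1 0.35 (SE 0.39, adjusted p = 0.700).

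In basal cells, 1 collagen differed between knockout-labelled and control libraries: Col28a1 rose, against 0.611% of all genes that rose, and 0 fell, against 0.0604% (0.671% in either direction). The edgeR test gave 14 of the 39 an unadjusted p under 0.05, again with no share of all genes beside it. DESeq2 called 4, among them Col11a1 as the one that fell, where it called 417 of 16453 genes. Groups did not overlap for 14 collagens that were higher and 1 that was lower in knockout-labelled libraries, where 8.15% and 4.21% of all genes were so (12.4% in either direction). The median log2 fold was 0.12 over the collagens and -0.01 over all genes.

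Col28a1 (chromosome 6, 7997100 to 8193709) encodes a von Willebrand factor A domain collagen known from the basement membrane around Schwann cells of peripheral nerves. It stood at 3.75, 6.09 and 2.61 CPM in basal knockout-labelled and at 0.622, 0.357 and 0.924 CPM in basal control libraries, from 37, 68 and 24 reads and 6, 4 and 10 reads. All 3 knockout-labelled libraries were above all controls. It rose by a log2 fold change of 2.69 (SE 0.50, adjusted p = 0.0395). The call was kept without basal control replicate 3, luminal knockout-labelled replicate 2 or luminal control replicate 3, and lost without any other library, with adjusted p between 0.0518 and 0.197. It was also lost when libraries were scaled by their total alone (0.0560) and in a fit of the basal libraries alone (0.0565). In luminal cells Col28a1 stood at 0.898, 0.268 and 0.734 CPM in knockout-labelled and at 0.842, 1.02 and 1.01 CPM in control libraries, a log2 fold change of -0.58 that was not called.

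The summed level of Schwann cell markers was also higher in basal knockout-labelled libraries. The sum of 5 such markers was 23.0, 41.4 and 17.8 CPM in basal knockout-labelled and 5.08, 7.15 and 6.10 CPM in basal control libraries. The sum was higher in all 3 knockout-labelled libraries than in any control, and each of the 5 markers had reads in both groups. Only 3 of the 5 passed the expression filter. Of these 2 were higher without overlap, against 8.15% of all genes, and 1 was called higher, against 0.611%. Both the sum and Col28a1 were highest in knockout-labelled replicate 2, and among the knockout-labelled libraries both were lowest in replicate 3. Among basal controls the orders differed, as replicate 2 had the highest sum and the lowest Col28a1 (0.357 CPM). The sum of 12 fibroblast markers had the same order in knockout-labelled replicates 1, 2 and 3 (1016, 1227 and 1005 CPM), so that order is not particular to Schwann cell markers. The part of Schwann cells in the Col28a1 result was not tested.

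Some fibrillar and type VI chains stood higher in basal knockout-labelled libraries without passing the test. Of the 10 tested fibrillar chains 6 had a positive and 4 a negative log2 fold (median 0.35), with 4 higher and 1 lower without overlap. Of the 6 type VI chains 4 had a positive and 2 a negative one (median 0.50), with 3 higher without overlap. Over all genes 8.15% were higher and 4.21% lower without overlap. Col3a1 stood at 548, 947 and 323 CPM in knockout-labelled and at 78.2, 90.3 and 150 CPM in control libraries, a log2 fold change of 2.51 (SE 0.97, adjusted p = 0.404). Col1a1 stood at 239, 378 and 261 CPM in knockout-labelled and at 59.2, 55.7 and 105 CPM in control libraries, a log2 fold change of 1.995 (SE 0.77, adjusted p = 0.405). Col1a2 had a log2 fold change of 2.10 (SE 0.86, adjusted p = 0.462). For all 3 the lowest knockout-labelled library was above the highest control. Col5a3, a minor chain of type V fibrils, had a log2 fold change of 2.72 (SE 0.68, adjusted p = 0.117), with 39.2, 75.6 and 29.3 CPM in knockout-labelled and 4.98, 5.63 and 11.3 CPM in control libraries. Col6a3, the long chain of type VI microfibrils, had the largest fold, 3.24 (SE 0.80, adjusted p = 0.116), with 109, 126 and 71.2 CPM in knockout-labelled and 6.85, 9.74 and 15.8 CPM in control libraries.

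More of these chains, and more genes in total, were called when the spread was taken from the basal libraries alone. In that fit Col1a1, Col1a2, Col3a1, Col5a3 and Col6a3 were called (adjusted p = 0.0373, 0.0259, 0.0472, 0.0432 and 0.0156), while Col28a1 was not. Over all genes it called 151 of 13971, against 100 of 14903 in the main fit. The summed level of the fibrillar class was 1581 ± 569 CPM in basal knockout-labelled and 594 ± 18.3 CPM in basal control libraries (mean ± SD, n = 3 each). Col1a1, Col1a2 and Col3a1 made up most of that sum in knockout-labelled libraries. The 4 fibrillar chains with negative folds were Col11a1 (-2.54), Col2a1 (-0.85, lower without overlap), Col11a2 (-0.49) and Col5a1 (-0.22), none of them called.

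Fibroblast markers moved with these chains. Their sum over 12 markers was 1016, 1227 and 1005 CPM in basal knockout-labelled and 331, 295 and 333 CPM in basal control libraries. Of the 12, 11 had groups that did not overlap and were higher in knockout-labelled libraries, where 8.15% of all genes were so. Their median log2 fold was 2.45, and each of the 12 had reads in both groups. Against 0.611% of all genes called higher, 2 of the 12 were, Pdgfra (2.41, SE 0.36, adjusted p = 0.0138) and Dpp4 (2.85, SE 0.53, adjusted p = 0.0395). Pdgfra lost its call without basal knockout-labelled replicate 2 (adjusted p = 0.0681) or 3 (0.0546) or basal control replicate 1 (0.104) or 2 (0.0695). Dpp4 kept its call without basal control replicate 3, luminal control replicate 2 or luminal control replicate 3, and lost it without any other library (0.0518 to 0.197), with library size alone (0.0560) and in a fit of the basal libraries alone (0.0656). Pericyte markers summed to 271 to 435 CPM in knockout-labelled and 189 to 459 CPM in control libraries, endothelial markers to 93.2 to 113 and 66.7 to 159 CPM, and adipocyte markers to 41.2 to 94.4 and 15.5 to 68.9 CPM, all with overlap. The 7 luminal markers summed to 1514 to 2507 CPM in knockout-labelled and 1224 to 1617 CPM in control libraries, with overlap. Their median log2 fold was 0.88, and 3 were higher without overlap, against 8.15% of all genes. The edgeR test called 0 of the 7, with 5 at an unadjusted p under 0.05. The part of stromal or luminal cells in the collagen levels was not tested.

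**Figure D4:**
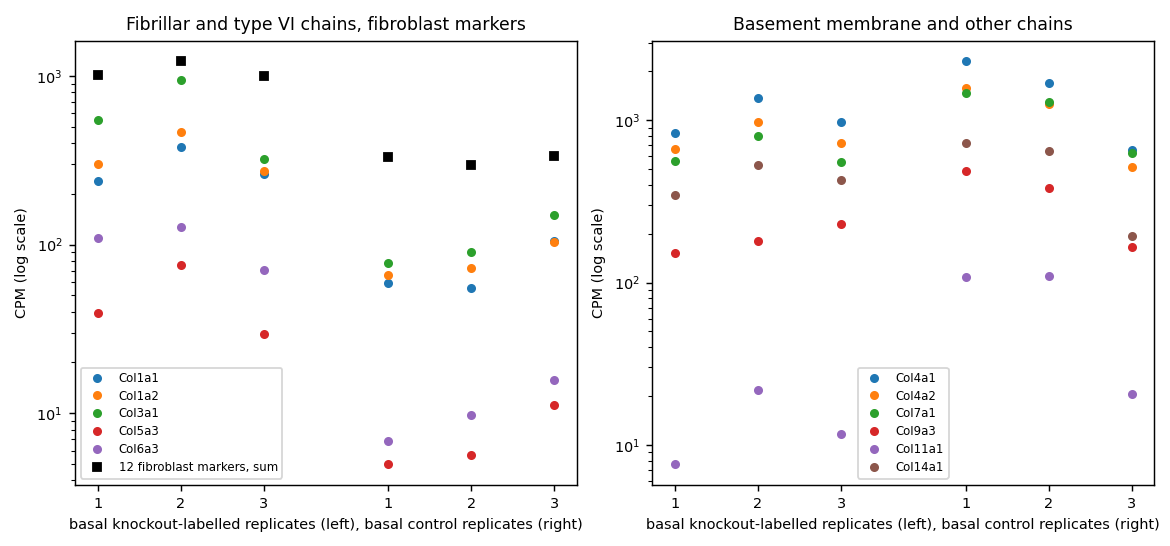
CPM on a log axis of fibrillar and type VI chains with the sum of 12 fibroblast markers (left), and of basement membrane and other chains (right), in each basal library, knockout-labelled replicates left of controls. On the left, all 3 knockout-labelled libraries lie above all controls for each gene, and on the right control replicate 3 lies well below the other 2 controls.

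Basement membrane chains and Col11a1 were split by basal control replicate 3. Col4a1 stood at 835, 1362 and 970 CPM in knockout-labelled and at 2315, 1700 and 657 CPM in control libraries, so that control replicate 3 was the lowest of all 6 and the other 2 controls the highest. Col7a1 stood at 558, 803 and 549 CPM in knockout-labelled and at 1470, 1289 and 625 CPM in control libraries, and Col11a1, a fibrillar chain that sets fibril width, at 7.60, 21.7 and 11.6 CPM and at 108, 111 and 20.7 CPM. For Col7a1 and Col11a1, control replicate 3 lay within the knockout-labelled range. The log2 folds were -0.56 (SE 0.39, adjusted p = 0.859) for Col4a1, -0.52 (SE 0.41, adjusted p = 0.911) for Col4a2, -0.83 (SE 0.39, adjusted p = 0.590) for Col7a1 and -2.54 (SE 0.58, adjusted p = 0.0866) for Col11a1. Without control replicate 3, Col11a1 was called at -2.996 (SE 0.41, adjusted p = 0.0101), while Col4a1 at -0.93 (adjusted p = 0.176) and Col7a1 at -1.12 (adjusted p = 0.221) were not.

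The 2 principal chains of type IV kept their proportion through this spread. Per length, there were 1.23, 1.37 and 1.30 Col4a1 transcripts for each Col4a2 transcript in basal knockout-labelled and 1.42, 1.31 and 1.24 in basal control libraries. The 2 genes lie head to head on chromosome 8 and are transcribed from a shared start region in opposite directions. In luminal libraries the ratio was 2.67 ± 0.668 in knockout-labelled and 2.33 ± 0.304 in control libraries. Type VI did not keep its proportion in the same way: Col6a3 per Col6a1 was 0.280 ± 0.0332 in basal knockout-labelled and 0.0464 ± 0.0448 in basal control libraries, without overlap.

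Minor type IV chains and the multiplexins were higher without being called. Col4a3, known from the glomerular basement membrane, stood at 4.26, 3.40 and 3.04 CPM in basal knockout-labelled and at 1.66, 1.07 and 1.02 CPM in basal control libraries, a log2 fold change of 1.51 (SE 0.38, adjusted p = 0.123). Col15a1 and Col18a1, the 2 multiplexins, had log2 folds of 0.92 (SE 0.62, adjusted p = 0.851) and 0.70 (SE 0.37, adjusted p = 0.677), with groups that did not overlap. Col8a1, the chain that fell in luminal cells, stood at 4.66, 6.18 and 5.54 CPM in basal knockout-labelled and at 2.90, 2.68 and 2.31 CPM in basal control libraries, a log2 fold change of 1.05 (SE 0.27, adjusted p = 0.124). Col17a1 had a log2 fold change of 0.12 (SE 0.45, adjusted p = 0.990) and Col6a1 one of 0.15 (SE 0.35, adjusted p = 0.988), which changed sign without knockout-labelled replicate 2 (-0.03) or control replicate 3 (-0.17).

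**Figure D5:**
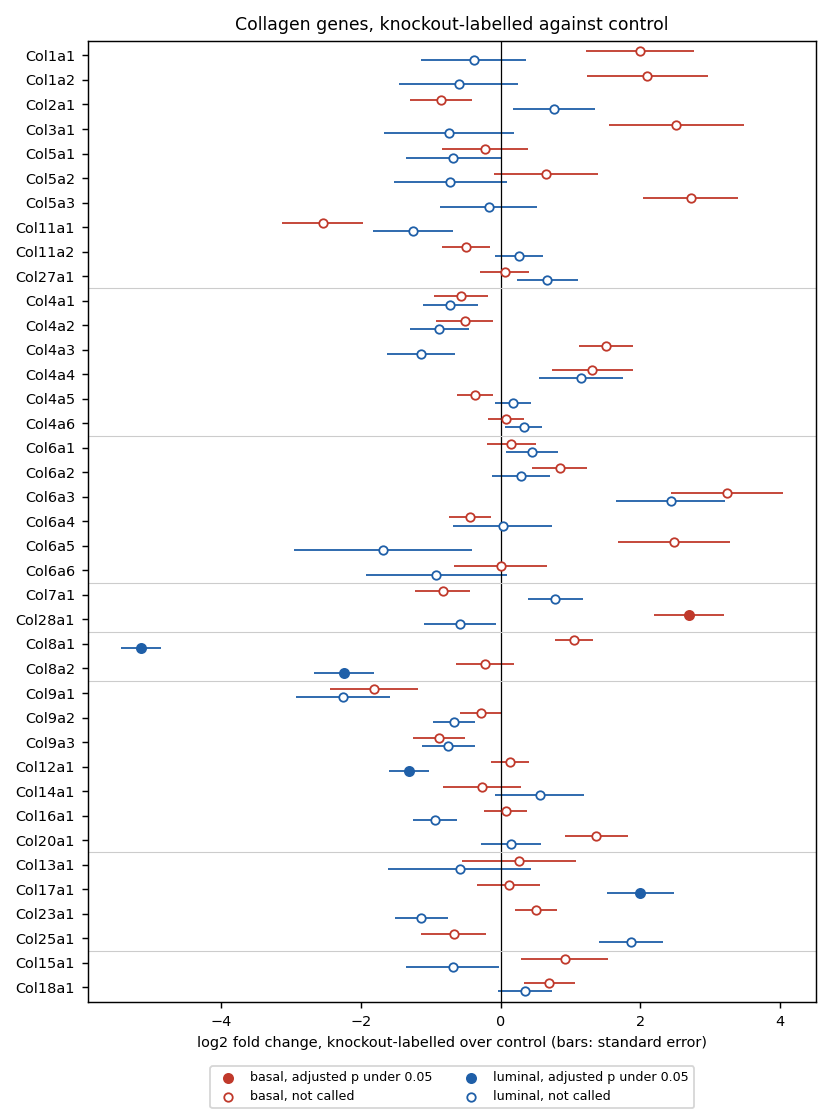
Log2 fold change of knockout-labelled over control libraries for the 39 tested collagens in basal (red) and luminal (blue) cells, with bars for the standard error and filled points for adjusted p under 0.05. Luminal Col8a1 stands apart at -5.14 while its basal value is 1.05, and the basal values of Col1a1, Col1a2, Col3a1, Col5a3 and Col6a3 lie between 1.995 and 3.24 with wide bars.

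The difference between the luminal and the basal change was tested directly. It was called for 1 collagen, Col8a1, at a log2 difference of -6.19 (SE 0.39, adjusted p = 4.9e-05), where 0.275% of all genes were called. It kept its call in every fit that left out 1 library, between -6.39 and -5.86. The next were Col28a1 at -3.28 (adjusted p = 0.0907), Col4a3 at -2.65 (0.104), Col25a1 at 2.54 (0.134) and Col12a1 at -1.45 (0.162), none of them called. The fibrillar chains Col1a1, Col1a2 and Col3a1 had differences of -2.38, -2.70 and -3.25 with adjusted p of 0.495, 0.489 and 0.435. Col17a1, called higher in luminal cells, differed from its basal change by 1.88 (SE 0.65, adjusted p = 0.307), so its change is not shown to differ between the cell types. Col4a1, Col4a2, Col6a1, Col7a1, Col15a1 and Col18a1 had differences of -0.16, -0.36, 0.30, 1.61, -1.60 and -0.35 and none was called.

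Genes that modify, process, bind and degrade collagen were taken from lists of 79 genes, of which 70 were tested. In luminal knockout-labelled libraries 1 of the 70 rose and 3 fell, and in basal knockout-labelled libraries 1 rose and 0 fell by edgeR. Of all genes 2.21% rose and 0.819% fell in luminal cells, and 0.611% rose and 0.0604% fell in basal cells. The median log2 fold of the 70 was -0.19 in luminal and 0.06 in basal cells, and that of all genes was -0.03 and -0.01. In the luminal comparison the block fit called 10 and DESeq2 called 11, and leaving out 1 library gave 1 to 9. Over all genes the block fit called 1097 and DESeq2 1093, against 451 in the main fit. Between luminal and basal cells, 2 of the 70 were higher and 49 lower in knockout-labelled, and 2 were higher and 33 lower in control libraries. The shares of all genes were 19.2% higher and 21.4% lower in knockout-labelled, and 16.3% higher and 16.8% lower in control libraries.

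Of the 4 luminal calls, 3 were among the 22 genes that modify and fold collagen in the endoplasmic reticulum. Plod2, a lysyl hydroxylase of the telopeptides, stood at 4.69, 4.47 and 4.60 CPM in luminal knockout-labelled and at 11.4, 9.71 and 9.75 CPM in luminal control libraries, and fell, with a log2 fold change of -1.16 (SE 0.17, adjusted p = 0.00750). Serpinh1, the collagen chaperone HSP47, stood at 25.7, 33.6 and 31.2 CPM in knockout-labelled and at 72.0, 111 and 58.7 CPM in control libraries, and fell, with -1.41 (SE 0.33, adjusted p = 0.0453). P4ha1, the catalytic subunit of prolyl hydroxylase, moved the other way, with 18.6, 23.4 and 25.6 CPM in knockout-labelled and 11.1, 7.03 and 13.2 CPM in control libraries, and rose by 1.11 (SE 0.25, adjusted p = 0.0366). All 3 had groups that did not overlap. Of the 12 tested genes of degradation and its inhibitors, Reck, a membrane inhibitor of metalloproteinases, fell at a log2 fold change of -1.46 (SE 0.35, adjusted p = 0.0476), with 5.09, 4.38 and 4.004 CPM in knockout-labelled and 9.26, 16.5 and 11.4 CPM in control libraries. Plod2 was called without any 1 library and lost its call in a fit of the luminal libraries alone (adjusted p = 0.0575). The other 3 lost theirs in that fit too, P4ha1 at 0.0981, Serpinh1 at 0.05003 and Reck at 0.0628. Library size alone ended the calls of Serpinh1 (0.0573) and Reck (0.0636), and limma-voom those of P4ha1 (0.0513) and Reck (0.134). P4ha1 lost its call without luminal knockout-labelled replicate 2 or 3, luminal control replicate 1 or 2, basal knockout-labelled replicate 1 or basal control replicate 1 or 2 (0.0529 to 0.126). Serpinh1 was kept without basal control replicate 3 or luminal control replicate 3 and lost without any other library (0.0508 to 0.170), and Reck was kept without basal knockout-labelled replicate 1 or 2 or basal control replicate 3 and lost without any other (0.0552 to 0.176).

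In basal cells the one call was Pcolce, which enhances the removal of the C-propeptide from fibrillar procollagens. It stood at 40.3, 42.5 and 26.3 CPM in basal knockout-labelled and at 10.4, 11.1 and 6.47 CPM in basal control libraries, well apart, and rose by a log2 fold change of 1.97 (SE 0.29, adjusted p = 0.0136). The call was lost without basal knockout-labelled replicate 1 (adjusted p = 0.0581) or 2 (0.0654) or basal control replicate 1 (0.0781). Its paralog Pcolce2 stood at 11.3, 18.6 and 11.6 CPM in basal knockout-labelled and at 0.415, 1.07 and 4.06 CPM in basal control libraries, a log2 fold change of 2.89 (adjusted p = 0.0764). In luminal cells Pcolce2 stood at 0.399, 0.805 and 1.20 CPM in knockout-labelled and at 4.21, 5.27 and 3.62 CPM in control libraries, a log2 fold change of -2.39 (adjusted p = 0.0804). The difference between its luminal and basal change was called, at -5.28 (SE 0.92, adjusted p = 0.0474), and was kept without basal control replicate 3 or luminal control replicate 3 and lost without any other library (0.0710 to 0.117) and with library size alone (0.0504).

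Receptors and fibril-associated proteins had 0 calls in either comparison by edgeR. Of the 10 receptors 1 had an unadjusted p under 0.05 in luminal and 1 in basal cells, with 0 called by DESeq2 in either. Of the 13 fibril-associated proteins 1 in luminal and 7 in basal cells had such a p, and DESeq2 called 1 and 4. Over all genes DESeq2 called 1093 of 16453 in luminal and 417 of 16453 in basal cells. Of the 10 tested receptors, Mrc2, the endocytic collagen receptor, had the lowest p in basal cells, with a log2 fold change of 0.85 (SE 0.34, adjusted p = 0.424), and Cd36 in luminal cells, with -1.74 (SE 0.71, adjusted p = 0.231). Of the 13 tested fibril-associated proteins, Ogn and Tnxb had basal log2 folds of 3.54 (SE 0.88, adjusted p = 0.116) and 3.01 (SE 0.83, adjusted p = 0.154), and 6 of the 13 had basal groups that did not overlap, where 12.4% of all genes did not. Postn had a luminal log2 fold change of -1.22 (SE 0.38, adjusted p = 0.119). Dcn, Lum and Fbln1 of this list are also in the fibroblast list, so the 2 lists are not separate evidence.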

How the data were processed

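The deposited values are raw counts of reads per gene, with no normalization by the authors; the submitters' processing notes name CASAVA 1.8.2, featureCounts and mm10. Which aligner and annotation were used is not given in the sources used here. Per the labels' protocols, RNA was extracted with an RNeasy kit and prepared by TruSeq RNA v2 for an Illumina HiSeq. That kit does not mark strand, so reads from overlapping genes on opposite strands cannot be told apart. In GENCODE, 13 collagens share exon bases with another gene (6.07% of Col9a3, 5.65% of Col4a3, at most 3.39% elsewhere), and none of the 5 called ones does. Between the 12 per-library tables and the table of the series, 0 values differed.

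Counts were tested in R 4.3.3 with edgeR 4.0.16 (quasi-likelihood F test, robust, TMM factors, expression filter by group; Benjamini-Hochberg), in 1 model of 4 group means over all 12 libraries with 8 residual degrees of freedom. The 14903 tested genes held at least 99.8% of the counts of each library, 859 of the 27179 genes have no symbol, and the common biological coefficient of variation was 32.6%. A count of 3 reads corresponds to 0.200 to 0.326 CPM. Standard errors came from dividing the log2 fold change by the root of F. The samples are biological replicates per the series' design, and no 2 replicates agreed within sampling noise (chi-square per degree of freedom 12.2 to 142). The edgeR step was tested on simulated counts. DESeq2 1.42.0, limma-voom (limma 3.58.1), other scalings and filters, fewer libraries and the replicate block were alternatives.

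Pairing of the shared replicate numbers was checked by correlating deviations from group means. Same-numbered luminal knockout-labelled and control libraries gave 0.36, 0.30 and 0.53, and luminal and basal controls 0.31, 0.42 and 0.47, so the block is given beside those comparisons. Basal knockout-labelled and control libraries gave -0.09, 0.36 and 0.13, and luminal and basal knockout-labelled libraries 0.09, 0.42 and 0.42. Numbers were taken to pair only where all 3 values were above 0.1, which neither of these comparisons met. Between luminal and basal knockout-labelled libraries, each library still correlated best with the one of its own number. The block fit is 1 model of all 12 libraries, so its terms are shared by all groups.

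Named collagens are the called ones and the 4 next by p in each knockout comparison, the 6 with the largest called fold in each direction between cell types, and a fixed set of 11; named pathway genes are the called members, or those with the lowest p. Col6a5, Col6a6, Col11a2, Col23a1, Col4a3, Col4a4, Col4a5, Col4a6, Col9a1 and Col9a3 are also given as values chosen after they were seen where they fall outside that rule. The collagens, lists and rules were chosen with earlier results of these data known. One marker gene is not reported here.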

Additional observations from a re-analysis of the deposited data

Results flagged for a closer look

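The knockout-labelled against control effect on Col8a1 differed between cell types by a test of the difference itself: it was lower in luminal than in basal cells by -6.19 on the log2 scale. Col8a1 fell in luminal libraries and its basal value, 1.05, was not called.

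The same test picked out Pcolce2, an enhancer of procollagen processing, with a difference of -5.28. Its luminal value of -2.39 and its basal value of 2.89 lay on opposite sides of 0 and neither was called on its own. Fibroblast markers were higher in the basal knockout-labelled libraries than in the basal controls (1005 to 1227 against 295 to 333 CPM in sum), and their part in the Pcolce2 values was not tested.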

How the results depend on the processing

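The results of the named collagens, called or not, were counted once per fit. Over the fits that left out 1 library, 878 kept their direction and side of the threshold, 42 lost the threshold, 8 gained it and 8 changed sign. Over all other settings 656 kept it, 8 lost it, 23 gained it and 0 changed sign. Of the 5 collagens called between knockout-labelled and control libraries, only Col8a1 kept its call without any 1 library. Col8a2, Col12a1, Col17a1 and Col28a1 each lost theirs in several of those fits. The basal collagen count of 1 became 0 with library size alone, 4 with DESeq2, 4 with the replicate block, 5 with only the basal libraries, and 0 to 2 without 1 library. Over all genes the basal count of 100 became 59 with library size alone, 417 with DESeq2, 236 with the block and 151 with only the basal libraries. The luminal count of 4 became 8 with DESeq2, 7 with the replicate block, and 1 to 6 without 1 library, with 1 left (Col8a1) without luminal knockout-labelled replicate 2 or luminal control replicate 1 or 2. Over all genes the luminal count of 451 became 1093 with DESeq2 and 1097 with the block. The count of the difference between cell types, 1, became 4 with DESeq2, and that of all genes went from 41 to 358. The basal pathway count of 1 became 9 with DESeq2, 5 with limma-voom, 4 with the replicate block, 8 with only the basal libraries, and 0 to 2 without 1 library. The luminal pathway count of 4 became 2 with library size alone, 11 with DESeq2, 2 with limma-voom, 10 with the replicate block, 0 with only the luminal libraries (which tests fewer genes and libraries), and 1 to 9 without 1 library. The causes were not tested. The counts between cell types stayed within 1.5 times under every setting (23 to 28 in controls, 30 to 33 in knockout-labelled libraries).

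Leaving out 1 library reversed some values that were not called. Col6a1 in basal cells ranged over -0.17 to 0.40 and was negative without knockout-labelled replicate 2 or control replicate 3. In luminal cells Col1a1 ranged over -1.69 to 0.49 and was positive without knockout-labelled replicate 1 or control replicate 3, and Col1a2 ranged over -2.02 to 0.31 and was positive without control replicate 3. The difference between cell types ranged over -0.54 to 0.21 for Col4a1, positive without basal knockout-labelled replicate 2 or basal control replicate 3, and over -0.60 to 0.12 for Col18a1, positive without luminal control replicate 3.

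Same-numbered basal knockout-labelled and control libraries correlated at -0.09, 0.36 and 0.13, so the numbers were not taken to pair them; the block there moved the count to 4 and added Col5a3, Col6a3 and Col6a5 to Col28a1. In the luminal and control comparisons it changed no call beyond those given. Library size alone moved the median of all genes by 0.11 between luminal and basal knockout-labelled libraries and by less than 0.1 elsewhere. Col8a1 kept its luminal call and its difference between cell types in every setting. Depth limits the low chains: Col28a1 rests on 4 to 68 reads per basal library, and Col6a4 on 2 to 3 reads per luminal library.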
